A study of Sus scrofa with 12 samples.

Results

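The HOX genes are the homeobox transcription factor genes of the clusters HOXA, HOXB, HOXC and HOXD. They were followed here in 2 organs of the male pig, testis and epididymis, in the Banna mini-pig inbred line (BMI), a line of small Chinese pigs. All rows of the count files named HOX, a cluster letter from A to D and a number were taken, which gave 35 of 30640 gene rows: 8 of HOXA, 10 of HOXB, 8 of HOXC and 9 of HOXD. The measurements come from short-read RNA sequencing with 5 libraries per tissue. Both groups come from untreated adult boars. Their age is 12 months by the labels, but the column headers read 12, 12, 11, 17 and 11 months for replicates 1 to 5. The same animal numbers recur in the headers of both tissues, so each replicate number stands for 1 boar. No label says which segment of the epididymis was taken, and the epididymis libraries hold epithelium, muscle and connective tissue together. Long-read libraries made from pooled boars of each tissue were not analysed here.

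A HOX protein binds DNA through its homeodomain, usually together with a PBX or MEIS cofactor. The number in the name is the paralog group, which follows the order of the genes along each cluster. Low numbers lie at the 3′ end and are switched on early and towards the head of the embryo. High numbers lie at the 5′ end and are switched on late and towards the tail. The epididymis and the vas deferens both grow from the Wolffian duct, and in mice the loss of Hoxa10 or Hoxa11 gives the vas deferens features of the epididymis. The testis grows from the gonadal ridge, and most of its cells are germ cells.

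The tissue labels were checked against marker genes. Leydig cell markers summed to 12140 to 19340 CPM in the testis libraries and to 26.6 to 33.7 in the epididymis, where CPM is the read count per 1000000 reads of the library. Markers of duct secretion summed to 66.6 to 96.1 CPM in testis and 4735 to 10850 in epididymis, and CRISP1, a secreted protein of the duct, had 0 reads in every testis library. Library totals were 18715154 to 30211957 reads in testis and 17980578 to 21937263 in epididymis, so that a count of 0 allows 0.0993 to 0.167 CPM (3 reads). The counts come from PCR-amplified cDNA, and intervals and floors cover counting error only. The signal recognition particle RNA had 7888 to 9134 CPM in testis replicates 1, 2, 3 and 5, but 7.75 in testis replicate 4 and 1.00 to 8.27 in the epididymis libraries. In this RNA class the other 4 testis libraries thus differ from all others, along with the tissue, and its part in the tissue differences was not tested. Testis replicate 4, which resembles the epididymis libraries in it, is 1 library, and its header gives an age of 17 months. It had 65.7 CPM of summed HOX reads, where the epididymis libraries had 1055 to 1895. Epididymis replicate 3 stands apart in several duct genes, though not in all, as given with the epididymis results.

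HOX transcripts were many times more abundant in the epididymis. Summed over the 35 genes they took 1255, 1517, 1895, 1279 and 1055 CPM in epididymis replicates 1 to 5, and 40.5, 49.3, 47.4, 65.7 and 54.1 CPM in testis replicates 1 to 5. The groups did not overlap, and the mean was 27.3 times higher in epididymis (1400 ± 322 against 51.4 ± 9.38 CPM, SD, n = 5 each). In tissue RNA a smaller share of expressing cells and less RNA per cell cannot be told apart. Of the 35 genes, 25 passed the filter on low counts, and edgeR's quasi-likelihood test called 24 of them higher in epididymis and 0 higher in testis at an adjusted p of 0.05. Over all 17225 genes tested, 37.8% were called higher in epididymis and 36.6% higher in testis. Since most HOX genes passed the filter only through the tissue where they were high, the fit without the filter is given too. It called 26 of all 35 higher in epididymis and 3 higher in testis, against 26.3% and 31.3% of 27584 genes. DESeq2 called 26 and 2 of the 35, against 6916 and 8848 of 27584 genes.

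**Figure D1:**
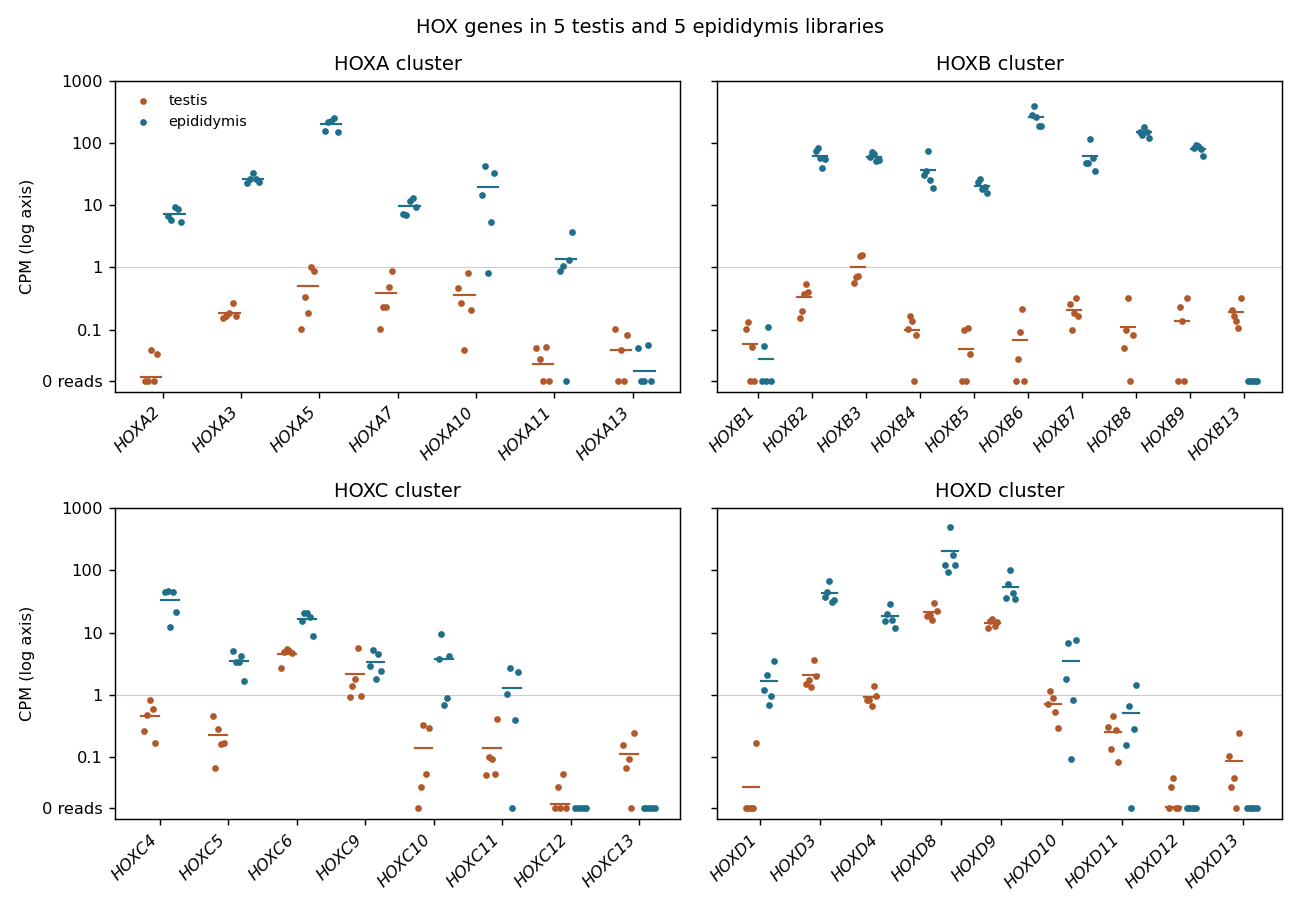
CPM (log axis) of 34 of the 35 HOX genes in 5 testis libraries (brown) and 5 epididymis libraries (blue), by cluster and paralog number; points are libraries, bars are means, and libraries without a read are drawn at the lowest tick. In most drawn genes all epididymis points lie above all testis points, and HOXB13, HOXC12, HOXC13, HOXD12 and HOXD13 have no read in the epididymis.

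The plot of CPM by cluster shows this gene by gene. All 5 epididymis libraries lay above all 5 testis libraries in 23 of the 35 HOX genes, where 17.8% of all gene rows and 29.3% of the genes tested did so. The reverse held for 1 HOX gene, HOXB13, where 21.5% of all rows and 32.1% of the genes tested did so. Fitted without the filter, the median log2 difference (epididymis over testis) of all 35 genes was 4.39, beside -0.31 over the 27584 genes of that fit. Over the 25 genes that passed the filter it was 5.82, beside 0.07, but the filter removed genes that were low in both tissues or had reads in testis only.

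Among the anterior genes, paralogs 1 to 3, 7 of 8 were called higher in epididymis. These genes pattern the hindbrain and the branchial region of the embryo. HOXB2 (chromosome 12, 24796786 to 24800499, build Sscrofa11.1) had 74.9, 82.6, 58.6, 40.4 and 56.1 CPM in epididymis replicates 1 to 5 and 0.154, 0.199, 0.370, 0.534 and 0.411 in testis. Its lowest epididymis library lay far above its highest testis library (log2 difference 7.54 ± 0.39 (SE), edgeR adjusted p = 3.04e-08). HOXB3 (chromosome 12, 24803119 to 24827557) had 59.8, 72.8, 65.9, 51.9 and 53.9 CPM against 0.564, 0.695, 0.741, 1.55 and 1.56, a log2 difference of 5.89 ± 0.34. It had the smallest span over the epididymis libraries of the HOX genes. HOXA3 (chromosome 18, 45421542 to 45467803) was nearly as even, with 23.1, 26.4, 32.5, 26.2 and 23.8 CPM. In testis it had 0.154, 0.166, 0.185, 0.267 and 0.164 CPM (log2 difference 7.09 ± 0.25, edgeR adjusted p = 9.61e-09). HOXD3 (chromosome 15, 81969482 to 81974893) had 37.7, 44.6, 67.9, 30.5 and 33.2 CPM in epididymis. In testis it had 1.49, 1.72, 1.34, 3.69 and 1.97 CPM, and replicate 4 was the high one (log2 difference 4.38 ± 0.35, edgeR adjusted p = 4.97e-07).

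Other anterior genes were lower in CPM. HOXA2 had 5.48 to 9.53 CPM in epididymis and HOXD1 0.684 to 3.43. HOXA2 had 2 reads in all testis libraries together, so its pooled ratio was 416 (95% counting interval 115 to 3444). HOXD1 had 4 testis reads, all in replicate 5, and its log2 difference was 5.37. Without that library the fit gave 8.12, but no testis read was then left, so 8.12 is not a measured fold. HOXB1, whose known role is in a single segment of the hindbrain, was the exception of this class, with 7 reads over the testis and 3 over the epididymis libraries. Its pooled ratio, epididymis over testis, was 0.499 (interval 0.0833 to 2.19), so that a difference was not detectable at this depth.

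Central genes, paralogs 4 to 8, carried most of the HOX reads of the epididymis, and 12 of 12 were called higher there. They pattern the neck and trunk of the embryo. HOXB6 (chromosome 12, 24849741 to 24853494) led in CPM and also per length, with 280, 394.5, 268, 187 and 188 CPM in epididymis replicates 1 to 5 against 0, 0.0331, 0.0926, 0.214 and 0 in testis. With 7 testis reads in all, it had the largest difference of the HOX genes tested (log2 11.91 ± 0.63, edgeR adjusted p = 3.37e-08). HOXB8 (chromosome 12, 24865985 to 24879706) had 151, 135, 182, 154 and 123 CPM against 0.0512, 0.0993, 0.324, 0 and 0.0821, a log2 difference of 10.26 ± 0.50. These HOXB genes were thus near the counting floor in every testis library. HOXA5 (chromosome 18, 45429691 to 45432723), needed for lung and trachea in the mouse, had 156, 223, 228, 254 and 154 CPM against 0.102, 0.331, 0.185, 1.01 and 0.862 (log2 difference 8.64 ± 0.54, edgeR adjusted p = 9.45e-08). HOXA7 followed at a lower level, with 7.28, 7.12, 11.7, 13.3 and 9.35 CPM against 0.102, 0.232, 0.231, 0.481 and 0.862. HOXB4, HOXB5 and HOXB7 ranged over 15.5 to 118.5 CPM in epididymis and 0 to 0.321 in testis.

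The central genes of HOXC and HOXD had log2 differences of 1.85 to 6.17, where those of HOXA and HOXB had 4.62 to 11.91. HOXC4 (chromosome 5, 19250411 to 19268267) had 44.9, 46.4, 12.2, 44.8 and 21.4 CPM in epididymis replicates 1 to 5 and 0.256, 0.463, 0.833, 0.588 and 0.164 in testis, a log2 difference of 6.17 ± 0.55. Replicates 3 and 5 were its low libraries. HOXC5 was scarcer, with 5.14, 3.395, 3.33, 4.17 and 1.67 CPM against 0.461, 0.0662, 0.278, 0.160 and 0.164 (log2 difference 3.95 ± 0.50). HOXC6 (chromosome 5, 19230227 to 19243522) had 15.4, 20.5, 20.6, 18.0 and 8.72 CPM against 2.66, 4.90, 5.42, 5.02 and 4.64, and its log2 difference was 1.85 ± 0.29 (edgeR adjusted p = 9.85e-05). HOXD4 had 15.5, 19.8, 28.7, 15.9 and 11.8 CPM against 0.820, 0.828, 0.648, 1.39 and 0.944 (log2 difference 4.28 ± 0.32). HOXD8 (chromosome 15, 81930923 to 81935528) had the highest CPM of the HOX genes in testis, with 18.3, 19.4, 15.9, 29.9 and 22.4, and in epididymis it had 123, 95.4, 494.5, 178 and 124. Its groups did not overlap (log2 difference 3.22 ± 0.43, edgeR adjusted p = 3.3e-05), and epididymis replicate 3 was far above the others. Without that library the log2 difference was 2.61.

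Posterior genes, paralogs 9 to 13, were split. They pattern the lumbar and tail regions, the limbs and the lower genital tract. Of the 15, 5 were called higher in epididymis, 1 was tested and not called, and 9 did not pass the filter. HOXB9 had the highest CPM of the class in epididymis, with 83.7, 92.3, 90.8, 80.6 and 62.1 there and 0, 0.232, 0.139, 0 and 0.329 in testis (log2 difference 9.0 ± 0.59, edgeR adjusted p = 1.24e-07). HOXD9 (chromosome 15, 81910415 to 81926276) was present in both tissues, with 35.7, 60.7, 100, 43.0 and 34.4 CPM in epididymis and 11.8, 15.6, 16.3, 12.6 and 14.6 in testis. Its groups did not overlap, although the log2 difference was only 1.92 ± 0.30 (edgeR adjusted p = 0.000101). HOXC9 (chromosome 5, 19212490 to 19215859) had 2.85, 5.20, 1.78, 4.56 and 2.40 CPM against 0.922, 1.39, 1.80, 5.66 and 0.944. Here testis replicate 4 exceeded every epididymis library, and the gene was not called (log2 difference 0.65 ± 0.53, edgeR adjusted p = 0.282). Without testis replicate 4 it was called higher in epididymis (log2 1.36, edgeR adjusted p = 0.0107), and when testis rested on that library alone the sign turned (log2 -0.86, edgeR adjusted p = 0.346).

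Paralogs 10 and 11, the genes known for shaping the distal Wolffian duct, were higher in epididymis on average and uneven within it. HOXA10 (chromosome 18, 45393525 to 45403259) had 14.7, 43.2, 0.821, 5.39 and 33.2 CPM in epididymis replicates 1 to 5 and 0.461, 0.265, 0.0463, 0.801 and 0.205 in testis. Epididymis replicate 3 barely exceeded the highest testis library, and the log2 difference was 5.82 ± 1.03 (edgeR adjusted p = 0.000281). HOXC10 (chromosome 5, 19197810 to 19202975) had 3.77, 9.58, 0.684, 0.890 and 4.16 CPM against 0, 0.0331, 0.324, 0.0534 and 0.287 (log2 difference 4.73 ± 0.96, edgeR adjusted p = 0.000743). HOXD10 (chromosome 15, 81911372 to 81921164) overlapped between tissues, with 1.78, 6.84, 0.0912, 0.834 and 7.64 CPM against 0.717, 1.16, 0.879, 0.534 and 0.287. Its call was the weakest (log2 difference 2.25 ± 0.88, edgeR adjusted p = 0.0347). It was lost with the boar as a block (log2 1.47, edgeR adjusted p = 0.214). Leaving out testis replicate 1, 3, 4 or 5, or replicate 2 or 5 of the epididymis, also ended it (edgeR adjusted p between 0.0632 and 0.0952). HOXA11 and HOXC11 did not pass the filter. Without the filter they were called higher in epididymis, with log2 differences of 5.43 (edgeR adjusted p = 0.000826) and 3.13 (edgeR adjusted p = 0.0141). HOXD11, with 27 reads in testis and 49 in epididymis, was not called there (edgeR adjusted p = 0.315).

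At the 5′ ends of the clusters almost no reads were found in the epididymis. Of the 6 genes of paralogs 12 and 13, HOXA13 had 2 epididymis reads beside 5 in testis, and HOXC12, HOXC13, HOXD12, HOXD13 and HOXB13 had 0 in every epididymis library. HOXB13, known as a marker of the prostate, had 0.205, 0.166, 0.139, 0.107 and 0.329 CPM in testis replicates 1 to 5. That is 22 reads, at least 6.30-fold higher than 3 reads over the whole epididymis group allow. It was called higher in testis without the filter (edgeR adjusted p = 0.00182) and by DESeq2 (adjusted p = 0.000851). HOXC13, a gene of hair and nail, and HOXD13, a gene of the digits, had 13 and 10 testis reads, at least 3.72-fold and 2.86-fold higher. Both were called higher in testis without the filter (edgeR adjusted p = 0.0148 and 0.0281), but only HOXC13 by DESeq2 (adjusted p = 0.0395 and 0.102). HOXC12 and HOXD12 had 2 testis reads each. The highest testis mean of these 6 genes was 0.189 CPM, that of HOXB13.

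**Figure D2:**
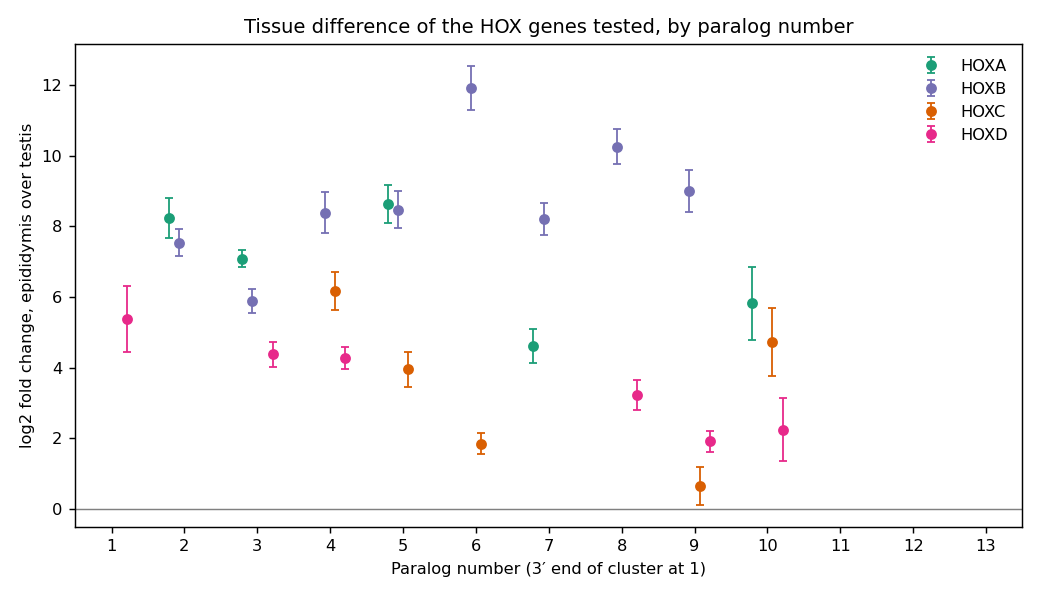
Log2 fold change (epididymis over testis) with its standard error for 24 of the 25 HOX genes that passed the filter, against paralog number, coloured by cluster. HOXB genes of paralogs 4 to 9 lie between 8.21 and 11.91, HOXC and HOXD genes lie lower, HOXC9 at 0.65 is the lowest, and no gene above paralog 10 passed the filter.

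The size of the tissue difference varied with the cluster, as the plot of fold change by paralog shows. Over all members, fitted without the filter, the median log2 difference was 5.62 for HOXA, 8.29 for HOXB, 2.48 for HOXC and 2.25 for HOXD. By paralog class it was 5.62 for anterior, 7.18 for central and 1.02 for posterior genes, of which 6 of 15 lay below 0. Genes without epididymis reads have no measured fold. At any bound of 0 or less they lie below these medians, so setting them at such a bound could not move the medians. The genes that passed the filter, which dropped 9 posterior genes, had medians of 6.46, 8.43, 3.95 and 3.75 for HOXA to HOXD and 3.49 for the posterior class. Genes of the same paralog group differed widely. At paralog 9 the log2 difference was 9.0 for HOXB9, 1.92 for HOXD9 and 0.65 for HOXC9, and 8.53 for HOXA9, counted apart below. At paralog 8 it was 10.26 for HOXB8 and 3.22 for HOXD8, and 3.31 for HOXC8, also counted apart. Posterior genes make up a larger part of HOXC and HOXD than of HOXA and HOXB, so the cluster and class medians are not independent. These medians describe the list and were not tested against other genes.

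HOXD genes led the HOX reads of the testis and HOXB genes those of the epididymis. A mean of at least 1 CPM was reached there by 6 genes, HOXD8, HOXD9, HOXC6, HOXC9, HOXD3 and HOXB3, against 27 in epididymis. HOXD8 and HOXD9 together took 74.4, 71.0, 67.9, 64.7 and 68.5% of the summed HOX CPM in testis replicates 1 to 5 and 12.6, 10.3, 31.4, 17.2 and 15% in the epididymis. HOXD as a whole took 77.2 ± 3.74% in testis and 22.1 ± 8.43% in epididymis, HOXB 4.37 ± 0.758% and 53.1 ± 5.98%, HOXA 3.56 ± 1.87% and 20.2 ± 4.11%, and HOXC 14.9 ± 3.20% and 4.64 ± 1.67% (SD, n = 5 each). For each of the 4 clusters the tissues did not overlap. These are shares of reads and are not corrected for gene length.

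**Figure D3:**
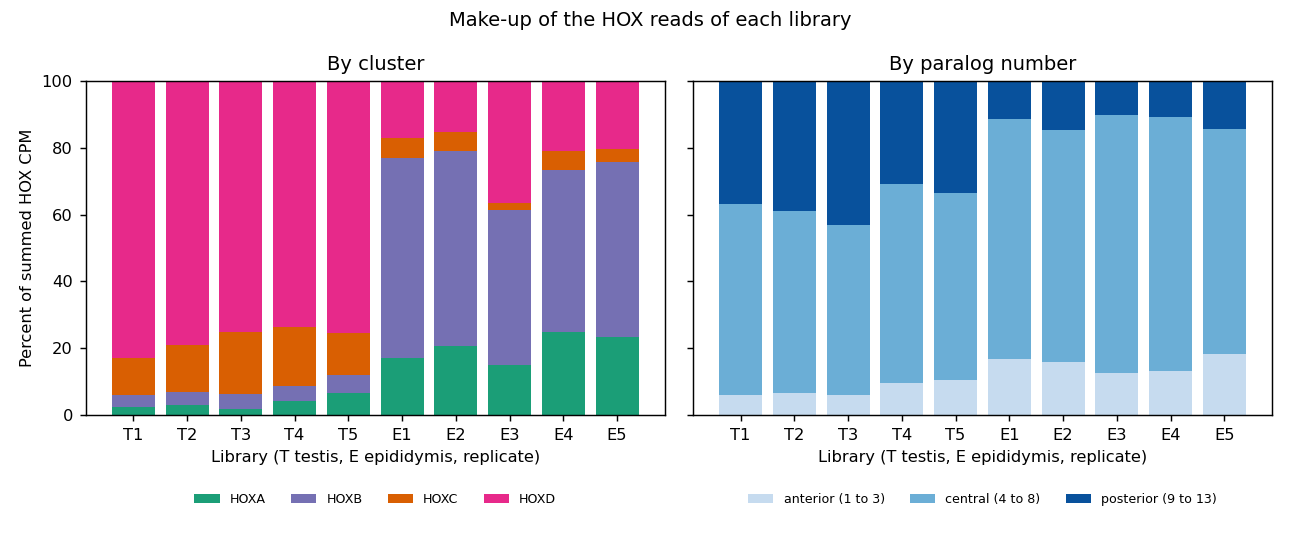
Share of each cluster (left) and of each paralog class (right) in the summed HOX CPM of each library, testis T1 to T5 and epididymis E1 to E5. HOXD makes up 73.7 to 82.9% of the testis bars and 15.2 to 36.5% of the epididymis bars, and the posterior class 30.7 to 43.0% and 10.3 to 14.7%.

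Levels of different genes can be compared only per length. On the scale of mean CPM per kilobase of the gene length in the files, HOXB6 led the epididymis with 153.6 ± 49.7 (SD, n = 5), followed by HOXB8 with 75.4 ± 11.3. HOXB6 exceeded HOXB8 in all 5 libraries. HOXD8 came next with 56.4 ± 46.1, then HOXB3 with 47.1 ± 6.67 and HOXB7 with 45.9 ± 24.4, and neighbours among these were not separated, since HOXD8 exceeded HOXB3 in only 2 of the 5 libraries and HOXB3 exceeded HOXB7 in 3. HOXA5 followed with 33.5 ± 7.49, HOXD9 with 30.8 ± 15.4, HOXB4 with 29.8 ± 18.0 and HOXB2 with 28.6 ± 7.59. In testis HOXD9 led with 7.96 ± 1.08 CPM per kilobase and HOXD8 had 5.90 ± 1.50, ahead of HOXC9 with 1.63 ± 1.52.

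Among the 35 genes, the epididymis libraries differed most in the posterior genes of paralogs 10 and 11. Summed over these 6 genes, replicates 1 to 5 held 22.3, 64.1, 1.60, 9.12 and 52.5 CPM, a 40.2-fold range, while the testis libraries held 1.27 to 1.81 CPM. Replicates 2 and 5 were high and replicate 1 was between. Replicates 4 and 3 were low, and replicate 3 lay inside the testis range. As a share of the summed HOX CPM the values were 1.77, 4.22, 0.0842, 0.713 and 4.98%, so these genes also varied relative to the other HOX genes. Without replicate 3, a choice made after the data were seen, the range was 7.02-fold. The summed HOX level itself differed by 1.80-fold over the same libraries and was highest in replicate 3.

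**Figure D4:**
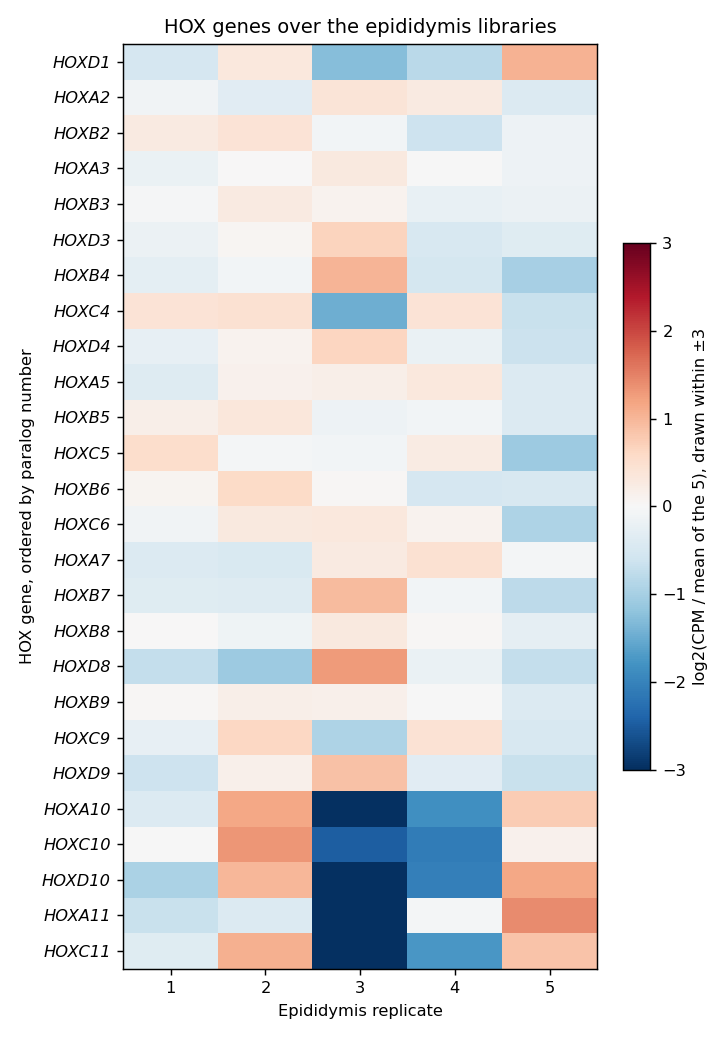
Log2 of the CPM of each HOX gene in each epididymis library over its mean in the 5 libraries (colour, drawn within plus or minus 3), for 26 of the 27 genes with a mean of at least 1 CPM, ordered by paralog number. The 5 genes of paralogs 10 and 11 are blue in replicate 3 and above their mean in replicate 5, and HOXB4, HOXB7, HOXD8 and HOXD9 are red in replicate 3.

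Gene by gene, the heat map of the epididymis libraries shows the same. Replicate 3 was the lowest library for all 5 genes of paralogs 10 and 11 with a mean of at least 1 CPM, and replicate 2 or 5 was the highest. HOXA10 spanned 52.7-fold from replicate 3 to replicate 2 (95% counting interval 33.1 to 89.3) and 8.01-fold without replicate 3. HOXC10 spanned 14.01-fold (8.27 to 25.6) and 10.8-fold without it. HOXD10 had 2 reads in replicate 3 and 156 in replicate 5, which gives a ratio of 83.8 (interval 22.8 to 698), and it spanned 9.16-fold without replicate 3. HOXA11 and HOXC11 had 0 reads in replicate 3, and their highest libraries, with 75 and 50 reads, were at least 26.9-fold and 20.02-fold higher. HOXD11, at a mean of 0.502 CPM, had 0.153, 0.657, 0, 0.278 and 1.42 CPM. The 5 genes lie on 3 chromosomes, and each has few reads in its low libraries.

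Many central genes had their highest level in replicate 3. Of 12 central genes, 6 were highest in replicate 3 and 8 lowest in replicate 5. HOXD8 spanned 5.18-fold (interval 4.93 to 5.45), HOXB4 4.08-fold and HOXB7 3.30-fold, with replicate 3 at the top of each. Without that library the spans were 1.86-fold, 1.90-fold and 1.64-fold. HOXC4 was an exception, lowest in replicate 3, with a 3.80-fold span. The anterior gene HOXD1 was lowest in replicate 3 and highest in replicate 5, with a 5.01-fold span. HOXB3 and HOXA3 changed least, by 1.40-fold and 1.41-fold. Over the 25 HOX genes with a mean of at least 1 CPM and a read in every library the median span was 2.43-fold, beside 2.29-fold over all 14601 such genes. A span of 5-fold or more was reached by 5 of them, or 20%, beside 17.5% of all genes, so the share of HOX genes was near that of all genes. HOXD10, HOXA10, HOXC10, HOXD8 and HOXD1 were the 5. The rule of a read in every library left out HOXA11 and HOXC11, with spans of at least 26.9-fold and 20.02-fold. By class the median span was 2.05-fold for 7 anterior, 2.40-fold for 12 central and 8.47-fold for 6 posterior genes. No posterior gene lay near that median. HOXD10, HOXA10 and HOXC10 spanned 14.01-fold or more, and HOXC9, HOXD9 and HOXB9 only 2.93-fold, 2.91-fold and 1.49-fold. HOXA9, counted apart below, spanned 29.7-fold.

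**Figure D5:**
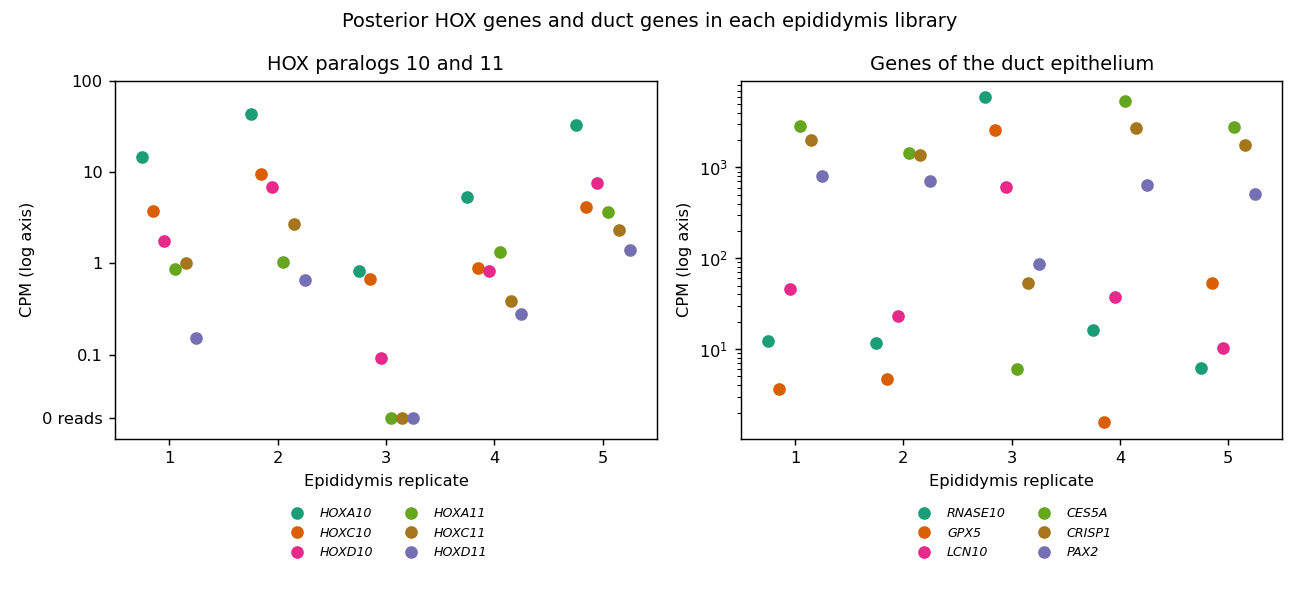
CPM (log axis) in the 5 epididymis libraries of HOX paralogs 10 and 11 (left; libraries without a read are at the lowest tick) and of 6 duct genes (right); points are shifted sideways by gene to keep them apart. Replicate 3 is lowest for the HOX genes, for CES5A, CRISP1 and PAX2, and highest for RNASE10, GPX5 and LCN10.

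Other genes moved with replicate 3, as the plot of posterior HOX and duct genes shows. RNASE10 and GPX5, secreted proteins known from the proximal epididymis, had 5909 and 2577 CPM there, against 6.12 to 16.02 and 1.56 to 52.7 in the other libraries. CES5A, a secreted carboxylesterase, had 6.11 CPM in replicate 3 and 1425 to 5415 in the others. Not every duct secretion marker set replicate 3 apart. CST11 was high in replicates 3 and 4, with 0.865, 2.35, 599, 382 and 0.490 CPM in replicates 1 to 5. LCN8 had 72.65, 70.1, 68.5, 35.5 and 47.6 CPM. PAX2, a paired-box factor of the Wolffian duct, had 793.7, 714.5, 86.3, 643.3 and 513.3 CPM in replicates 1 to 5. Of the 14 duct secretion markers, 10 had a row, and their sum was 7439, 4735, 10850, 10780 and 6768 CPM. The 8 smooth muscle markers summed to 12720, 17330, 7336, 6061 and 12670 CPM, so that replicates 3 and 4 were low in them as in paralogs 10 and 11. The 8 fibroblast markers summed to 1843, 2281, 5535, 1653 and 4310 CPM, the 7 epithelial markers with a row to 3390, 2533, 1841, 2458 and 2526, and the 9 germ cell markers with a row to 22.3, 29.1, 463.8, 70.4 and 37.0. None of the markers in these lists was at 0 in every epididymis library. Their part in the HOX differences was not tested.

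Rows under an Ensembl identifier hold further HOX genes. The gene table pairs the identifier ENSSSCG00000028997 with HOXA9 (chromosome 18, 45404594 to 45411512) and ENSSSCG00000038644 with HOXC8 (chromosome 5, 19222124 to 19225734). They are not counted among the 35. HOXA9 had 39.1, 130, 4.38, 35.9 and 39.5 CPM in epididymis and 0 to 0.370 in testis (log2 difference 8.53 ± 1.02), with replicate 3 lowest and replicate 2 highest, as for HOXA10. Its span over the epididymis libraries was 29.7-fold, wider than the 14.01-fold of HOXC10, so wide spans were not limited to paralogs 10 and 11. HOXC8 had 1.99, 3.45, 14.3, 4.12 and 2.64 CPM against 0.256 to 0.862 (log2 difference 3.31 ± 0.60), with replicate 3 highest, as for HOXD8. Its span was 7.21-fold, wider than the 5.18-fold of HOXD8.

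Genes beside the clusters were also examined. With RefSeq positions of the build Sscrofa11.1, found for 32 of the 35 genes, the clusters HOXB to HOXD spanned 165.7 kb (HOXB, chromosome 12, 24784953 to 24950661), 117.2 kb (HOXC, chromosome 5, 19151096 to 19268267) and 96.0 kb (HOXD, chromosome 15, 81893997 to 81990026). The 2 nearest protein-coding genes on each side with a row in the files, a rule chosen after the data were seen, gave 16 genes, of which 14 were tested. Of these, 7 were called higher in epididymis, 3 higher in testis and 4 not called, with log2 differences from -9.64 to 2.60. The shares called were 50% and 21.4%, beside 37.8% and 36.6% of all genes tested. Higher in testis were TTLL6, a tubulin-modifying enzyme gene 29.8 kb beyond HOXB13 (12.6 ± 2.07 against 0.00979 ± 0.0219 CPM), LNPK 88.3 kb beyond HOXD13 (log2 -1.93 ± 0.24) and HIBADH 271.2 kb beyond HOXA13 (log2 -0.56 ± 0.20). HNRNPA3, an RNA-binding protein gene 968.3 kb beyond HOXD1, and SKAP2, at the 3′ side of HOXA, were the most abundant of those higher in epididymis, with log2 differences of 1.75 ± 0.35 and 2.06 ± 0.35. SNX11, CALCOCO2, CALCOCO1 and CBX5 were not called. EVX1 and EVX2, homeobox genes at the 5′ ends of HOXA and HOXD, had no read in the epididymis and did not pass the filter. In these RefSeq positions HOXD9 overlaps HOXD10 and HOXD11, and HOXA3 overlaps HOXA5. The annotation used for counting may differ, so how reads of these genes were assigned or lost is uncertain.

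The cofactors of HOX proteins were split between the tissues. Of 9 PBX, MEIS and PKNOX genes, 5 were called higher in epididymis and 4 higher in testis, beside 37.8% and 36.6% of all genes, and the median log2 difference was 1.19. MEIS1 had 29.1 ± 13.9 CPM in epididymis against 4.36 ± 1.18 in testis (SD, n = 5), and MEIS3 13.6 ± 7.07 against 1.97 ± 0.388. MEIS2 and PBX2 were higher in epididymis by log2 differences of 1.53 ± 0.30 and 1.19 ± 0.29. PBX4 and PKNOX2 were higher in testis, with 109 ± 6.89 against 15.8 ± 5.39 CPM and 37.5 ± 3.17 against 10.03 ± 1.08. PKNOX1 and PBX3 differed little (log2 -0.60 ± 0.21 and -0.62 ± 0.24, edgeR adjusted p = 0.0243 and 0.0358). Without epididymis replicate 4 or 5 neither was called (edgeR adjusted p = 0.0532 to 0.0907), so 2 cofactors were then higher in testis. PBX3 lost its call in 9 of 17 alternatives, among them the block for the boar (edgeR adjusted p = 0.0655) and leaving out testis replicate 4 or 5 or epididymis replicate 1. With testis replicate 4 alone standing for the testis the counts were 1 and 2, and PKNOX1 stood at log2 0.04.

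Genes of Polycomb proteins, which keep HOX genes silent, and of trithorax proteins, which keep them active, were called in shares near those of all genes (37.8% higher in epididymis and 36.6% higher in testis). Of 27 Polycomb genes tested, 9 (33.3%) were called higher in epididymis and 9 higher in testis, with a median log2 difference of 0.27. RBBP7, a histone-binding subunit, had 650.3 ± 358.1 CPM in epididymis against 50.1 ± 14.6, and RING1, a ubiquitin ligase subunit, 86.1 ± 21.6 against 52.5 ± 5.15. PHC2 and PHC1, subunits that cluster the complex, were higher in testis, with 248 ± 15.9 against 77.5 ± 22.0 CPM and 256 ± 26.3 against 38.0 ± 9.03. Of 11 trithorax and H3K27 demethylase genes, 5 (45.5%) were called higher in epididymis and 4 (36.4%) in testis, with a median of -0.33. KMT2C, MEN1, DPY30, KMT2A and KDM6A were the 5, with log2 differences of 1.38, 1.40, 2.17, 1.00 and 0.63. The call of KDM6A (edgeR adjusted p = 0.0389) was lost in 14 of 17 alternatives and held with library totals and without epididymis replicate 1 or 2. WDR5, ASH2L, KDM6B and KMT2B were higher in testis, with log2 differences of -1.47, -1.35, -0.62 and -0.50, and KMT2B was not called with the boar as a block (edgeR adjusted p = 0.0537). RBBP5 and ASH1L were not called, and RBBP5 was called higher in testis without testis replicate 4 (log2 -0.39, edgeR adjusted p = 0.0342) and with DESeq2 (log2 -0.48, adjusted p = 0.00402).

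Genes known to act on HOX genes from outside the clusters form a further list. Of 8 tested retinoic acid receptor and other input genes, 4 (50%) were called higher in epididymis and 2 (25%) in testis, with a median log2 difference of 0.14. For so short a list these shares lie near the 37.8% and 36.6% of all genes. RARG had 56.6 ± 13.4 CPM in epididymis against 16.6 ± 3.74, and RXRB, the insulator protein CTCF and the ligand GDF11 were higher by log2 0.64, 1.04 and 1.55. RXRA and RXRG were higher in testis (log2 -1.36 and -4.55). RARA and RARB were not called (edgeR adjusted p = 0.252 and 0.435). RARB had 1.86 to 5.06 CPM in the epididymis apart from replicate 3, where it had 11.99. Leaving out replicate 3 made it higher in testis (log2 -1.08, edgeR adjusted p = 0.00651). CDX1, CDX2 and CDX4, which open the HOX clusters in the embryo, stayed under the filter, at means of 0.141 CPM or less in either tissue.

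Other homeobox genes of the genital ducts are given for comparison. Of 12 tested, 7 (58.3%) were called higher in epididymis and 2 (16.7%) in testis, beside 37.8% and 36.6% of all genes, with a median log2 difference of 1.86. PAX2 had 550 ± 279 CPM in epididymis against 0.250 ± 0.195 (log2 difference 11.14 ± 0.89), where that of HOXB6 was 11.91. IRX3, a homeobox factor of another family, had 119, 188, 7.93, 35.8 and 181 CPM in epididymis replicates 1 to 5 and at most 0.267 in testis (log2 difference 10.16 ± 1.10). Its libraries stood in the order of HOXA10, with replicates 2 and 5 high, 1 between and 4 and 3 low. TSHZ2 and LHX9, a gonadal factor, were higher in testis, by log2 differences of -2.87 and -4.97. LHX1 and MSX1 were among the genes not called, and LHX1 was called higher in epididymis without epididymis replicate 5 (log2 1.44, edgeR adjusted p = 0.0367).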

How the data were processed

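RNA was measured in 5 testis and 5 epididymis libraries, 1 per boar and tissue. The authors deposited 1 file per library with unnormalised counts of reads for each gene and, per the file headers, a gene length in bases. Per the submitters' processing notes the authors used cutadapt 3.0, STAR and featureCounts of Subread with the build Sscrofa11.1. The annotation release is not given in the sources used here, nor is the strand setting or the rule for multi-mapped reads, so overlapping genes are uncertain.

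The fit used R 4.3.3 and edgeR 4.0.16: filterByExpr (17225 genes kept), TMM factors, and the robust quasi-likelihood test with tissue as the only term, Benjamini-Hochberg adjusted over all genes tested and called at 0.05. Fold changes are epididymis over testis. Each SE is the unshrunk log2 fold change over the square root of F. CPM uses library totals. The script was tested on simulated data. DESeq2 1.42.0 was an alternative, as were other scalings, no filter, a block for the boar and leaving out libraries. Ratio intervals are exact binomial (Clopper-Pearson, 95%). The same animal numbers in the headers pair the tissues, although deviations of same-numbered libraries correlated at only 0.00867 to 0.0893. Testis replicates 1, 3 and 4 correlated higher with an epididymis library of another number (0.036, 0.0944 and 0.0639), so the pairing rests on the headers alone. No pair of libraries was identical (lowest chi-square per gene 9.53 in testis and 72.5 in epididymis). Values are given in every library for the 4 most abundant genes of each cluster in epididymis and for those at 1 CPM or more in testis. In other lists the 2 most abundant called genes in each direction are named, and every gene where 5 or fewer were counted. Genes with the widest and narrowest span over the epididymis are named too. The members and lists were chosen with earlier results of these data known. A few genes that enter the counts and medians are not reported here by name and are left out of the figures.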

Additional observations from a re-analysis of the deposited data

Results flagged for a closer look

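Of 33 gene and tissue groups with a mean of at least 1 CPM, 5 held a library whose gap to the nearest other library exceeded 0.71 of the group's range, the 95% critical value of Dixon's test for 5 samples. Chance flags about 1 in 20 groups. In the epididymis both concerned replicate 3. HOXD8 had 494.5 CPM there against 95.4 to 178 in the others, and HOXB7 had 118 against 35.8 to 58.6. In testis, HOXC9 had 5.66 CPM in replicate 4 against 0.922 to 1.80, and HOXD3 had 3.69 in the same library against 1.34 to 1.97. HOXC6 had 2.66 CPM in testis replicate 1 against 4.64 to 5.42.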

How the results depend on the processing

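Of 425 recomputed values of the 25 HOX genes tested, 410 kept direction and call, 13 lost the call, 1 gained it and 1, HOXC9 with testis replicate 4 standing alone for the testis (log2 -0.86), changed sign. The HOX count higher in epididymis was 18 to 26 under all alternatives run and 23 to 25 on leaving out single libraries. The count higher in testis was 0, except 3 without the filter and 2 with DESeq2, since more genes were tested there. The median log2 difference was 5.82, or 4.39 without the filter and 4.32 with DESeq2, which add low genes, 5.20 with testis replicate 4 alone and 5.28 to 5.98 on leaving out single libraries. With testis replicate 4 as the sole testis library, 2145 genes were called higher in epididymis, against 6506. The counts higher in epididymis and in testis were then 1 and 2 for cofactors, 2 and 2 for trithorax genes and 1 and 1 for HOX inputs, and 4 Polycomb genes were higher in epididymis. The lone testis library is assumed there to vary like the epididymis libraries. Leaving out single libraries gave 2 to 4 cofactors higher in testis. The range of the summed paralogs 10 and 11 over the epididymis was 7.02-fold to 40.2-fold on leaving out single libraries, with 7.02 without replicate 3. With the boar as a block (replicate block), 23 HOX genes were called higher in epididymis, and only HOXD10 among them lost its call. Scaling by DESeq2's size factors in edgeR moved the median log2 of all genes from 0.07 to -0.05. Depth limits paralogs 11 to 13 and HOXB1, which had 2 to 135 reads or none in a tissue.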
